A study of Mus musculus with 4 samples.

Results

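The urea cycle turns ammonia into urea, and the liver is its main site. The set described here consists of 10 genes, found by their symbols Cps1, Otc, Ass1, Asl, Arg1, Nags, Glul, Gls2, Oat and Slc25a15 among the 33924 gene symbols of the count files. All 10 had a row and at least 10 counts in every library. The libraries were made from liver of male C57BL/6Rj mice (C57BL6 in the labels) aged 3, 9, 15 or 21 months, labelled Young, Adult, Old and Very old, which all received food ad libitum and carried no transgene or treatment that the labels name. For each age, equal amounts of RNA from 24 mice (6 time points of the day with 4 mice each) were combined into 1 library. Daily rhythms are therefore averaged, and since there was 1 library per age, neither the spread between mice nor that between libraries of the same age can be measured. All intervals given cover counting error only.

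In hepatocytes, ammonia and bicarbonate enter the cycle in the mitochondrion through carbamoyl phosphate, which is joined with ornithine to citrulline. Citrulline leaves the mitochondrion and is converted in the cytosol through argininosuccinate to arginine, from which urea is split off while ornithine returns. The lobule of the liver divides this work. Hepatocytes near the portal vein carry most of the urea cycle and release ammonia from glutamine, whereas a thin layer of hepatocytes around the central vein binds the remaining ammonia into glutamine.

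The libraries were made to hold reads that start at capped 5'-ends of RNA. Where the counted reads lay within a gene was not examined. The counts of a gene are taken here to stand for transcripts initiated at its promoters. The sequences around the transcription start are therefore shown for 4 genes on which the results below turn, namely for 2 genes whose level was highest at 9 months (Ass1 and Oat), for a gene that stayed high afterwards (Otc), and for a gene with its lowest level at 21 months (Glul). They run from 100 bases before to 20 bases after the RefSeq start on GRCm38.p6, and capitals mark the motifs that were searched, each on both strands. These were the letters TATAAA known from promoters with a fixed start, the letters CCAAT bound by nuclear factor Y, the E-box CACGTG, and as part of the cyclic AMP response element TGACG.
Ass1 (chr2:31470170-31470289, plus strand): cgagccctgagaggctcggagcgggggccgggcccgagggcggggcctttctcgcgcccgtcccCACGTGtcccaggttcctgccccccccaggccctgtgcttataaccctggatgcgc
Oat (chr7:132576379-132576498, minus strand): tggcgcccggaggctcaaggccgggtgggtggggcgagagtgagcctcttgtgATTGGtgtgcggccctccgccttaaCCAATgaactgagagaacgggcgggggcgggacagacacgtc
Otc (chrX:10252205-10252324, plus strand): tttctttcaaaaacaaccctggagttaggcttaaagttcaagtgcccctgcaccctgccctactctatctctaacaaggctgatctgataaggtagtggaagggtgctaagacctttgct
Glul (chr1:153899829-153899948, plus strand): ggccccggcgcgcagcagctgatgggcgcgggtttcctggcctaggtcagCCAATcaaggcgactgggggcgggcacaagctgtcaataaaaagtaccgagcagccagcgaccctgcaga

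The window of Ass1 held a single CACGTG, a palindrome that therefore reads the same on both strands, and 3.74% of the windows of this length over 32851 promoters of the RefSeq table held it. A window of Slc25a15, which is not printed here, held CACGTG as well, 77 bases before the start. Whether this motif had a part in the level of either gene was not tested. Oat held CCAAT once on each strand and Glul held it once, compared with 20.8% of all windows. None of the 4 motifs was found in the window of Otc. TATAAA, which was present in 6.10% of all windows, was found in none of the 4 genes. These matches are descriptions of letters only. The RefSeq table had promoters for 6 of the 10 genes, and Cps1, Asl, Arg1 and Gls2 had no entry.

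The libraries held between 525772 (15 months) and 958586 (9 months) counts on genes. The 10 genes together took 0.773% of these counts at 3 months (95% Wilson interval from 0.756% to 0.791%), 1.03% at 9 months (from 1.01% to 1.05%), 0.755% at 15 months (from 0.732% to 0.779%) and 0.903% at 21 months (from 0.882% to 0.925%). The share was thus highest in the 9 month library, and the shares at 3 and 15 months had overlapping intervals. The tissue label fits the defining markers of hepatocytes. Albumin (Alb) alone had 52169, 55731, 29404 and 47962 counts at 3, 9, 15 and 21 months, and the 7 hepatocyte markers with a row summed to between 104376 and 114925 counts per 1000000 gene counts (cpm). Markers of other cells were much lower. The summed levels ranged from 685 to 905 cpm for 7 Kupffer cell markers, from 594 to 705 cpm for 7 markers of sinusoidal endothelium, from 346 to 578 cpm for 7 stellate cell markers, from 17.7 to 41.8 cpm for 6 cholangiocyte markers (Epcam at 0 in all libraries) and from 13.6 to 30.4 cpm for 6 lymphocyte markers (Ms4a1 at 0 in all libraries). A count of 0 allows a level of up to 3.13 to 5.71 cpm, depending on the library. Red blood cell markers were between 1376 cpm at 21 months and 2365 cpm at 9 months. In RNA of whole liver, fewer cells of a type and less RNA per cell cannot be told apart.

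On the scale of cpm, averaged over the 4 libraries, the order of the 10 genes was Cps1 (3349), Ass1 (2651), Otc (879.9), Glul (458), Oat (411), Asl (375), Arg1 (235), Gls2 (142), Slc25a15 (117) and Nags (29.1). Each capped transcript gives 1 start regardless of its length, and the counts were therefore not divided by length for this order. Divided by the length of the longest annotated transcript, Ass1 (1563 cpm per kilobase) came before Cps1 (603) and Otc (294), Oat (191) before Glul (164), and Arg1 (159) before Asl (156), so that 4 of the 10 genes kept their rank. The neighbours Glul and Oat also exchanged places between libraries, with Oat above Glul at 9 months beyond counting error, while at 21 months their levels did not differ beyond it. On both scales Nags was the lowest, and all 10 genes had a mean level above the median of all genes counted in every library.

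**Figure D1:**
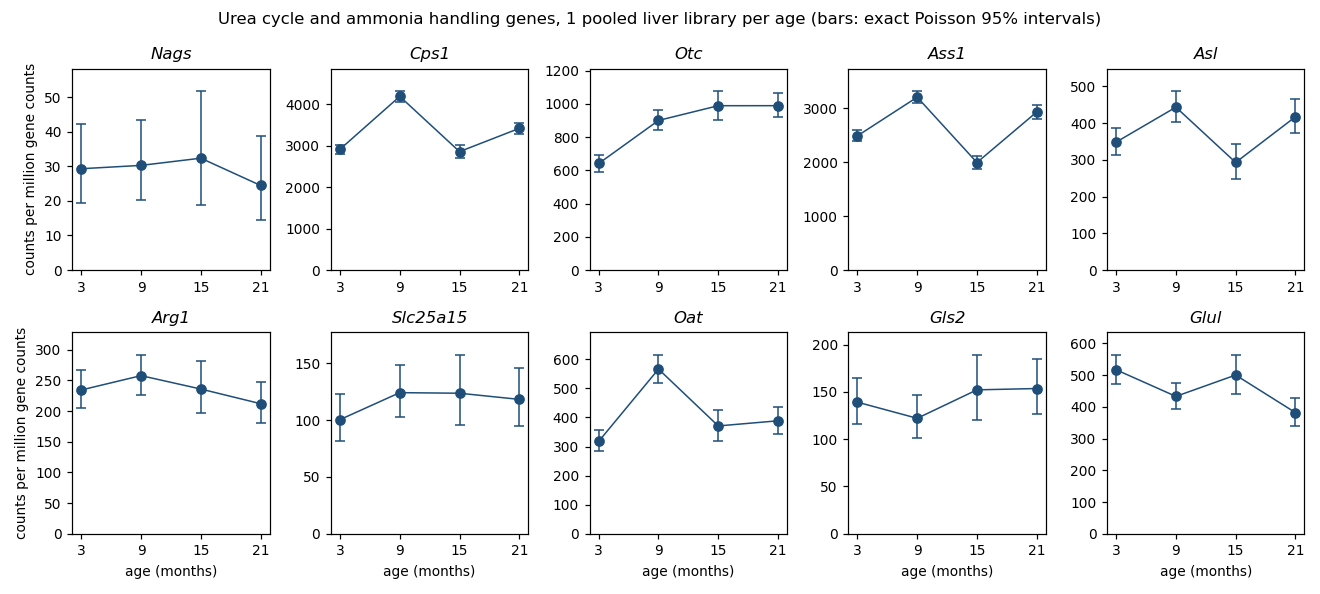
Level of each gene in cpm (y axis, from 0) against age in months (x axis), with 1 pooled library per age and exact Poisson 95% intervals as bars. Cps1, Ass1, Asl and Oat have their highest point at 9 months, Otc stays between 900.3 and 989 cpm from 9 months on, and the intervals of Arg1, Gls2, Slc25a15 and Nags overlap at all ages.

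For comparisons between libraries, the counts were scaled by the geometric mean of the 8704 genes that were counted in all 4 libraries, which gives a centered log-ratio (clr). The study took its clr over a smaller set of annotated 5'-ends above a minimum of reads, so that the values here rest on another input. A ratio was counted as past the fold if it was at least 1.5 in either direction, and as beyond counting error if its 95% Clopper-Pearson interval left out 1. Both statements compare 2 libraries, not 2 ages in general. A share of genes past either mark in the whole table is given for comparison, and, because low counts scatter more, also for the 497 genes with at least 100 counts in every library, to which 7 of the 10 genes belong.

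The first mitochondrial steps were represented by Nags, Cps1 and Otc. Cps1, the carbamoyl phosphate synthetase that feeds ammonia into the cycle, spans bases 67169600 to 67277833 of chromosome 1 (plus strand, NCBIM37, the assembly also called mm9) and had 2790, 4021, 1504 and 2519 counts at 3, 9, 15 and 21 months. This corresponds to 2919 cpm (from 2811 to 3029), 4195 cpm (from 4066 to 4326), 2861 cpm (from 2718 to 3009) and 3423 cpm (from 3290 to 3559). The cpm was thus highest at 9 months and in between at 21 months, with overlapping intervals at 3 and 15 months. On the geometric mean scale, the 9 over 3 month ratio of Cps1 was 1.47 (from 1.40 to 1.55). The 15 over 9 month ratio was 0.608 (from 0.573 to 0.645), followed by 1.27 (from 1.19 to 1.36) from 15 to 21 months. Between 3 and 15 months the ratio was 0.896 (from 0.841 to 0.955) on this scale, beyond counting error, but 0.980 (from 0.920 to 1.04) on library totals. As for the endpoints, 21 over 3 months gave 1.14 (from 1.08 to 1.21).

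Otc, which joins carbamoyl phosphate and ornithine to citrulline, spans bases 9829431 to 9898150 of chromosome X (plus strand). It had 613, 863, 520 and 728 counts, or 641, 900.3, 989 and 989 cpm. Otc was therefore low only in the 3 month library, without the return at 15 months seen for Cps1. Its ratio was 1.44 (from 1.30 to 1.60) for 9 over 3 months and 0.980 (from 0.877 to 1.09) for 15 over 9 months. With a ratio of 1.502 (from 1.35 to 1.67), Otc was the 1 gene of the 10 past the fold between 3 and 21 months, and it lay just at the mark of 1.5. Among the genes with at least 100 counts in every library, 96.2% had a lower 21 over 3 month ratio.

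Nags makes N-acetylglutamate, the activator that CPS1 requires. It spans bases 102006827 to 102010791 of chromosome 11 (plus strand) and had 28, 29, 17 and 18 counts, equal to 29.3, 30.3, 32.3 and 24.5 cpm. At this depth no difference between any 2 libraries was detectable for Nags. The 21 over 3 month ratio of 0.813 had an interval from 0.423 to 1.52, which takes in a level 1.5 times higher as well as one 1.5 times lower.

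The cytosolic steps begin with Ass1, the argininosuccinate synthetase (plus strand of chromosome 2, 31325727 to 31376192), with 2376, 3069, 1047 and 2154 counts. These are 2486 cpm (from 2387 to 2588), 3202 cpm (from 3089 to 3317), 1991 cpm (from 1873 to 2116) and 2927 cpm (from 2804 to 3053). Ass1 was highest at 9 months and lowest at 15 months, and the 4 intervals did not overlap. Its ratio was 1.32 (from 1.252 to 1.39) for 9 over 3 months, 0.555 (from 0.517 to 0.595) for 15 over 9 months and 1.56 (from 1.45 to 1.69) for 21 over 15 months. Between 3 and 21 months a ratio of 1.15 (from 1.08 to 1.22) remained.

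Asl, the argininosuccinate lyase that releases arginine, spans bases 130487128 to 130501002 of chromosome 5 (minus strand). It had 333, 425, 154 and 307 counts, or 348, 443, 293 and 417 cpm. Like Ass1, Asl had its highest level at 9 months and its lowest at 15 months. Unlike those of Ass1, its intervals overlapped at 9 (from 402 to 488) and 21 months (from 372 to 467). They also overlapped at 3 (from 312 to 388) and 15 months (from 248 to 343). On library totals the 15 over 3 month ratio was 0.841 (from 0.690 to 1.02). The ratios were 1.31 (from 1.13 to 1.51) for 9 over 3 months, 0.589 (from 0.487 to 0.710) for 15 over 9 months and 1.52 (from 1.245 to 1.85) for 21 over 15 months. For 21 over 3 months the ratio of 1.17 (from 0.995 to 1.37) was not beyond counting error, but it was on the 4 other scales, for instance with 1.20 (from 1.02 to 1.40) on library totals.

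Arg1, the arginase that splits arginine into urea and ornithine (minus strand of chromosome 10, 24635014 to 24647276), had 224, 247, 124 and 156 counts, which are 234, 258, 236 and 212 cpm. Here the 4 intervals overlapped, and no step between neighbouring ages was beyond counting error. Its lowest point at 21 months gave a ratio of 0.781 (from 0.635 to 0.958) against 9 months, which was beyond counting error on the geometric mean scale but not on that of library totals. Slc25a15, the carrier that exchanges ornithine and citrulline across the inner mitochondrial membrane (minus strand of chromosome 8, 23486026 to 23509093), had 96, 119, 65 and 87 counts, or 100.4, 124, 124 and 118 cpm. All ratios of Slc25a15 between neighbouring ages had intervals that took in 1, with 1.27 (from 0.961 to 1.68) for 9 over 3 months as the largest.

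Outside the cycle proper, Oat converts ornithine to glutamate semialdehyde and is known from hepatocytes around the central vein. It spans bases 139749158 to 139768081 of chromosome 7 (minus strand) and had 304, 543, 195 and 286 counts. In cpm, Oat was at 318 (from 283 to 356), 566 (from 520 to 616), 371 (from 321 to 427) and 389 (from 345 to 436). The 9 month library stood above the other 3, whose intervals overlapped. With a 9 over 3 month ratio of 1.83 (from 1.58 to 2.11), Oat showed the largest difference of the 10 genes at this step, and 97.4% of the genes with at least 100 counts had a lower one. Its 15 over 9 month ratio was 0.584 (from 0.493 to 0.689), and its 21 over 9 month ratio was 0.651 (from 0.562 to 0.753).

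Glul, the glutamine synthetase of hepatocytes around the central vein, spans bases 155747074 to 155756853 of chromosome 1 (plus strand) and had 494, 415, 263 and 281 counts. This corresponds to 517 cpm (from 472 to 564), 433 cpm (from 392 to 477), 500.2 cpm (from 442 to 564) and 382 cpm (from 338 to 429). Glul was highest at 3 months and lowest at 21 months, without a peak at 9 months. Its ratio was 0.859 (from 0.752 to 0.981) for 9 over 3 months, 1.03 (from 0.879 to 1.21) for 15 over 9 months and 0.813 (from 0.684 to 0.965) for 21 over 15 months. The first of these was not beyond counting error with TMM factors (0.883, from 0.773 to 1.01), and neither the first nor the last was with a 99% interval. Over the whole range, 21 over 3 months gave 0.719 (from 0.619 to 0.834). Gls2, the liver-type glutaminase that frees ammonia near the portal vein (plus strand of chromosome 10, 127631513 to 127647060), had 133, 117, 80 and 113 counts, or 139, 122, 152 and 154 cpm. No difference between 2 libraries was beyond counting error for Gls2, and its 21 over 3 month ratio was 1.07 (from 0.829 to 1.39).

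**Figure D2:**
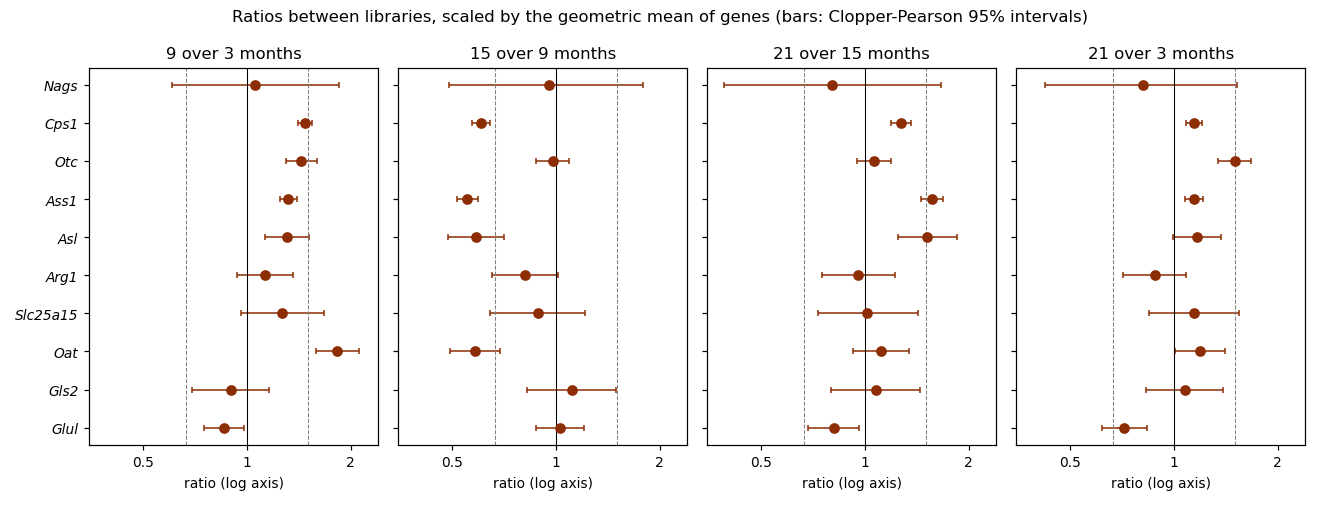
Ratio of each gene between 2 libraries (x axis, log scale) for 3 steps of age and for 21 over 3 months, with Clopper-Pearson 95% intervals as bars, a solid line at 1 and dashed lines at 1.5-fold in either direction. From 9 to 15 months Cps1, Ass1, Asl and Oat lie left of the dashed line, whereas Otc (0.980) and Glul (1.03) lie at the solid line.

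Counted over the 10 genes, 1 gene (Oat) was past the fold between 3 and 9 months, compared with 49.1% of all 8704 genes and 13.9% of those with at least 100 counts. Beyond counting error were 5 genes that were higher at 9 months (Cps1, Otc, Ass1, Asl and Oat), against 9.66% of all genes and 30.2% of the deeply counted ones, and 1 gene that was lower (Glul), against 11.3% and 29.4%. The median 9 over 3 month ratio was 1.29 for the 10 genes and 1.02 for all genes. From 9 to 15 months, 4 genes were past the fold, namely Cps1, Ass1, Asl and Oat, all of them lower at 15 months, against 25.6% of all genes and 10.7% of the deeply counted ones. The same 4 genes were beyond counting error, against 8.94% and 39.6%. The median 15 over 9 month ratio was 0.852 for the 10 genes and 0.975 for all genes. Among the deeply counted genes it was 0.901, and 0.608 for the 7 of the 10 genes among them. When library totals were used in place of the geometric mean, the 15 over 9 month ratios became 1.121 times as high (a shift of 0.17 on the log2 scale), and Cps1 was then no longer past the fold, with a ratio of 0.682.

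Between 15 and 21 months, Ass1 and Asl were past the fold and higher at 21 months, against 27.8% of all genes and 7.85% of the deeply counted ones. In addition, Cps1 was beyond counting error and higher (3 genes in all, against 8.7% of all genes and 32.8% of the deeply counted ones), and Glul was lower (1 gene, against 7.55% and 16.3%). On library totals no gene was past the fold at this step, since the ratio of Ass1 then was 1.47. Between the youngest and the oldest pool, Otc was past the fold (1 gene, against 24.6% of all genes that were past it and higher, and 4.02% of the deeply counted ones). Higher and beyond counting error were 4 genes (Cps1, Otc, Ass1 and Oat), against 9.38% of all genes and 23.5% of the deeply counted ones, and lower was 1 gene (Glul), against 10.3% and 29.8%. Of the 2 remaining pairs, which share libraries with the former, 15 against 3 months had 0 genes past the fold (54.1% of all genes and 18.5% of the deeply counted ones) and 21 against 9 months had 1, Oat (48.8% and 8.45%). Beyond counting error were 4 genes between 3 and 15 months (19.7% of all genes and 62% of the deeply counted ones), of which Otc was higher at 15 months with a ratio of 1.41 (from 1.252 to 1.59) and Cps1, Ass1 and Asl were lower. Between 9 and 21 months these were 5 genes (18% of all genes and 52.9% of the deeply counted ones), Cps1, Ass1, Arg1, Glul and Oat, all lower at 21 months. With a single library for each age, the shares of the 10 genes cannot be set against a spread between mice.

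With 1 library per age, no comparison of 2 ages has a replicate. The test that was run is that of a straight trend over the 4 ages, which leaves 2 residual degrees of freedom. With edgeR's quasi-likelihood test and Benjamini-Hochberg adjustment over 5569 genes, 6 genes passed an adjusted p of 0.05 (0.108% of those tested), and 0 of the 10 genes did. Without adjustment, 290 genes (5.21%) and 0 of the 10 had a p under 0.05, and DESeq2's Wald test called 0 genes in all and also gave none of the 10 an unadjusted p under 0.05. The largest slopes were those of Otc with a log2 change of 0.37 per year (edgeR, adjusted p = 0.998) and Glul with -0.24 per year (edgeR, adjusted p = 0.998). For Cps1, Ass1, Asl and Oat the fitted slopes lay between -0.02 and 0.02 per year. A straight line over age cannot register a rise followed by a fall, which is the course described above for these genes. Their slopes therefore do not tell whether their levels differed between ages. With 2 residual degrees of freedom, the lack of calls among the 10 genes is also no evidence that their levels stayed the same.

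The ratio of 2 genes within the same library does not depend on any scale between libraries. Ass1 and Asl, which catalyse consecutive steps, had the steadiest ratio of all 45 pairs. Ass1 had 7.14 times the counts of Asl at 3 months (from 6.36 to 8.03), 7.22 times at 9 months (from 6.52 to 8.01), 6.80 times at 15 months (from 5.74 to 8.11) and 7.02 times at 21 months (from 6.22 to 7.93). The highest of these ratios was 1.06 times the lowest, while the counts of Ass1 themselves ranged from 1047 to 3069. Cps1 over Ass1 was less steady, with 1.17, 1.31, 1.44 and 1.17, and its highest value was 1.23 times the lowest. Asl over Arg1, the next consecutive step, was 1.49, 1.72, 1.24 and 1.97, with the highest 1.58 times the lowest. The ratio of Asl over Arg1 at 15 months was 0.722 times that at 9 months (from 0.543 to 0.959). At 21 months it was 1.58 times that at 15 months (from 1.17 to 2.15).

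Otc also departed from both of its neighbours in the pathway. Cps1 over Otc was 4.55 (from 4.17 to 4.98) at 3 months and 4.66 (from 4.33 to 5.02) at 9 months, but 2.89 (from 2.62 to 3.20) at 15 months and 3.46 (from 3.18 to 3.76) at 21 months. The ratio at 15 months was thus 0.621 times that at 9 months (from 0.548 to 0.703). Otc over Ass1 was 0.258, 0.281, 0.497 and 0.338, a 1.77-fold difference (from 1.55 to 2.01) between 9 and 15 months. Otc over Slc25a15, its ornithine supply, was 6.39, 7.25, 8 and 8.37, and no difference between 2 libraries was beyond counting error.

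The enzymes of the portal and the central side were set against each other in the same way. Cps1 over Glul was 5.65 (from 5.13 to 6.23), 9.69 (from 8.76 to 10.7), 5.72 (from 5.01 to 6.54) and 8.96 (from 7.92 to 10.2) at 3, 9, 15 and 21 months. It was thus high at 9 and 21 months and low at 3 and 15 months. Oat over Glul, both known from the central side, differed most of all 45 pairs, with 0.615, 1.31, 0.741 and 1.02 in the order of age. Between 3 and 9 months this ratio differed 2.13-fold (from 1.76 to 2.58). Among the 45 pairs, 29 had a highest ratio at least 1.5 times the lowest, and 6 stayed under 5/4 times. For pairs of other genes such numbers were not computed, so that they describe these 10 genes only. Pairs with Nags rest on as few as 17 counts and fall on both sides, for instance Nags/Glul (1.23) and Ass1/Nags (1.94). The 45 pairs were examined after the counts had been seen, and the ratios carry no test.

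**Figure D3:**
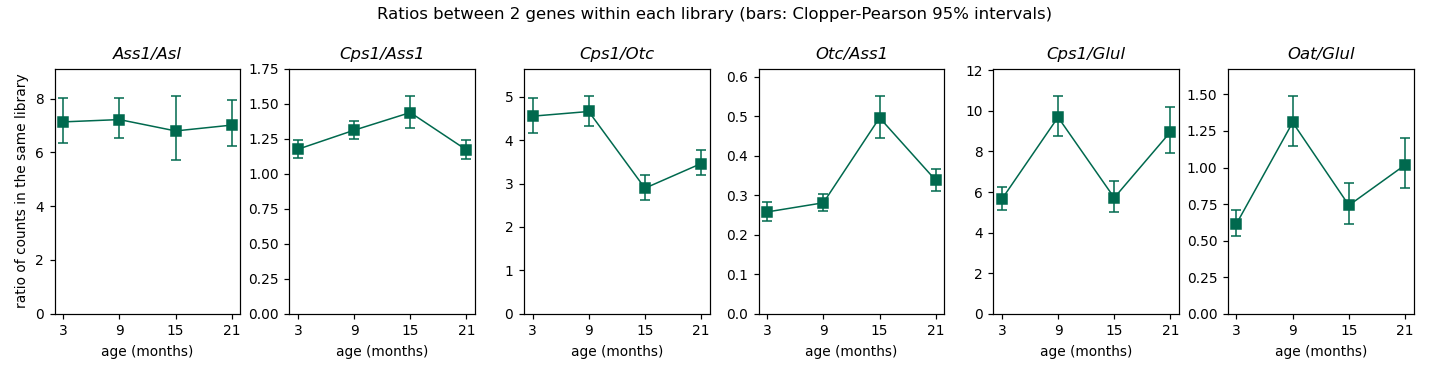
Ratio of the counts of 2 genes in the same library (y axis, from 0) against age in months (x axis), with Clopper-Pearson 95% intervals as bars and 1 library per age. Ass1/Asl stays between 6.80 and 7.22, whereas Otc/Ass1 moves from 0.258 at 3 months to 0.497 at 15 months and Oat/Glul from 0.615 to 1.31 between 3 and 9 months.

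The variance of clr over the 4 ages, the measure of variability used in the study, was highest for Oat with 0.0736 ± 0.0158 (± standard error from counting noise, 4 libraries). It was followed by Ass1 (0.0634 ± 0.00777), Asl (0.0525 ± 0.0186), Cps1 (0.0459 ± 0.00492) and Otc (0.0352 ± 0.00867). These 5 genes had variances from 13.9 times (Asl) to 117 times (Ass1) as large as the counting noise, which is the mean of the reciprocal counts. Glul had 0.0185 ± 0.00884, equal to 6.28 times its counting noise. For Arg1 (0.0118) the variance was 2.06 times the noise, and for Slc25a15 (0.00945), Gls2 (0.00535) and Nags (0.0138) it was below it.

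These variances depended on single libraries. Without 9 months that of Oat was 0.00761 and that of Cps1 0.0153, without 3 months that of Otc was 0.0011, and without 15 months those of Ass1 and Asl were 0.0206 and 0.019. For Glul, 0.00668 remained without 21 months. In the other direction, Ass1 had 0.0974 and Asl 0.0801 without 3 months, Oat 0.112 and Cps1 0.0711 without 21 months, and Glul 0.028 without 9 and 0.0281 without 15 months. Oat was therefore the most variable of the 10 genes without 15 or 21 months, whereas Ass1 was so without 3 or 9 months.

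All 10 genes had a variance below the median of all 8704 genes (0.16) and a mean clr above their median (-0.21). The median of all genes is, however, set by genes with few counts. Among the 497 genes with at least 100 counts in every library, the median variance was 0.0243, and Cps1, Otc, Ass1, Asl and Oat were above it. Within these genes, Oat was more variable than 86.7%, Ass1 than 83.1%, Asl than 77.1%, Cps1 than 73.2% and Otc than 65.4%, while Glul (41.6%) and Arg1 (26.4%) were in the lower part.

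**Figure D4:**
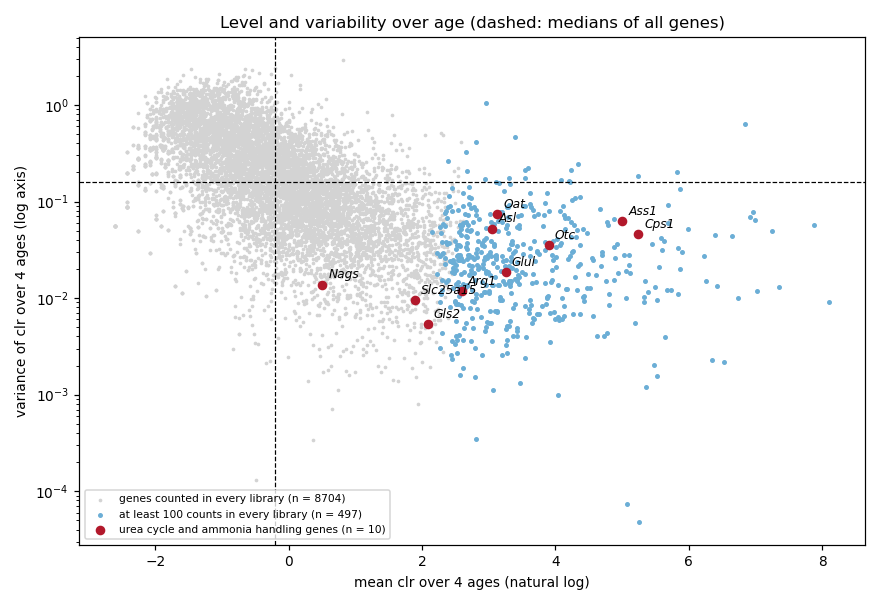
Variance of clr (y axis, log scale) against mean clr (x axis, natural log) over the 4 ages for each gene, with dashed lines at the medians of all 8704 genes. The 10 genes (red) lie right of and below the medians, and 5 of the 7 with at least 100 counts in every library lie above the median of 0.0243 of the genes with such counts (blue).

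The pattern of Cps1, the gene with the highest counts, was searched among the other 496 genes with at least 100 counts in every library. Among the 3 nearest genes over the 4 libraries were Gnmt, the glycine N-methyltransferase, with 279, 412, 149 and 263 counts (root mean square difference of 0.0206 in clr), and the cytochrome P450 gene Cyp2c67 with 290, 453, 161 and 288 counts (0.0384). For Oat, the gene with the highest variance, these included Fmo5 with 1376, 2538, 869 and 1446 counts (0.0487) and Ppm1k with 182, 286, 119 and 150 counts (0.0702). With 4 libraries, such likeness describes these libraries only.

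Other genes that bring nitrogen to the cycle were given by a list of 12, of which 10 had counts in every library. Of these, 1 was past the fold and beyond counting error and higher at 21 than at 3 months (7.88% of all genes), and 1 was lower (8.47%), with a median ratio of 0.818 over the list against 0.994 over all genes. The higher gene was Got1, the cytosolic aspartate aminotransferase, with 219, 269, 121 and 261 counts and a ratio of 1.51 (from 1.254 to 1.81). The lower one was Aspg, an asparaginase, with 69, 22, 11 and 29 counts and a ratio of 0.531 (from 0.332 to 0.831). Genes of ornithine, proline, arginine and polyamine metabolism formed a list of 14, of which 7 had counts in every library, and 0 of these were past the fold and beyond counting error in either direction. The 2 with the most counts were Aldh4a1, which follows Oat on the way to glutamate, with 262, 285, 150 and 274 counts (21 over 3 months 1.32, from 1.11 to 1.57), and Gamt, which completes creatine synthesis, with 228, 298, 124 and 198 counts (1.098, from 0.903 to 1.33).

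Among 15 genes of amino acid and nitrogen transport, 13 had counts in every library and 1, Slc25a2, the paralog of Slc25a15, had 0 counts in all of them. Past the fold, beyond counting error and higher at 21 months were 3 genes (7.88% of all genes). Slc7a2, a carrier of cationic amino acids such as arginine and ornithine, had 163, 295, 162 and 198 counts and a 21 over 3 month ratio of 1.54 (from 1.24 to 1.90). Slc3a1, a subunit of another such carrier, had 108, 152, 85 and 152 counts (1.78, from 1.38 to 2.30). Slc25a12, a mitochondrial aspartate-glutamate carrier, had only 7, 13, 12 and 20 counts (3.61, from 1.47 to 10.1).

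Lower at 21 months by the same marks were 2 transport genes (8.47% of all genes). The mitochondrial glutamate carrier Slc25a22 had 78, 52, 33 and 24 counts (0.389, from 0.235 to 0.622). Rhbg, an ammonia channel of the hepatocytes around the central vein, had 10, 6, 1 and 1 counts, and the ratio of 0.126 had an interval from 0.00291 to 0.889. Of these transport genes, Slc25a12 and Slc25a22 were under 0.05 in the age trend without adjustment, but neither passed edgeR's test after it (adjusted p = 0.955 and 0.853).

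Of 13 regulators of these genes, all had counts in every library. Past the fold, beyond counting error and higher at 21 months were 2 (7.88% of all genes), the glucocorticoid receptor Nr3c1 with 20, 38, 33 and 40 counts (2.53, from 1.44 to 4.57) and Foxo3 with 24, 43, 11 and 42 counts (2.21, from 1.31 to 3.82). Lower was 1 (8.47% of all genes), the hepatocyte factor Cebpa, with 118, 99, 76 and 51 counts (0.547, from 0.386 to 0.765). The age trend of Nr3c1 was under 0.05 without adjustment but not with it (edgeR, adjusted p = 0.848).

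**Figure D5:**
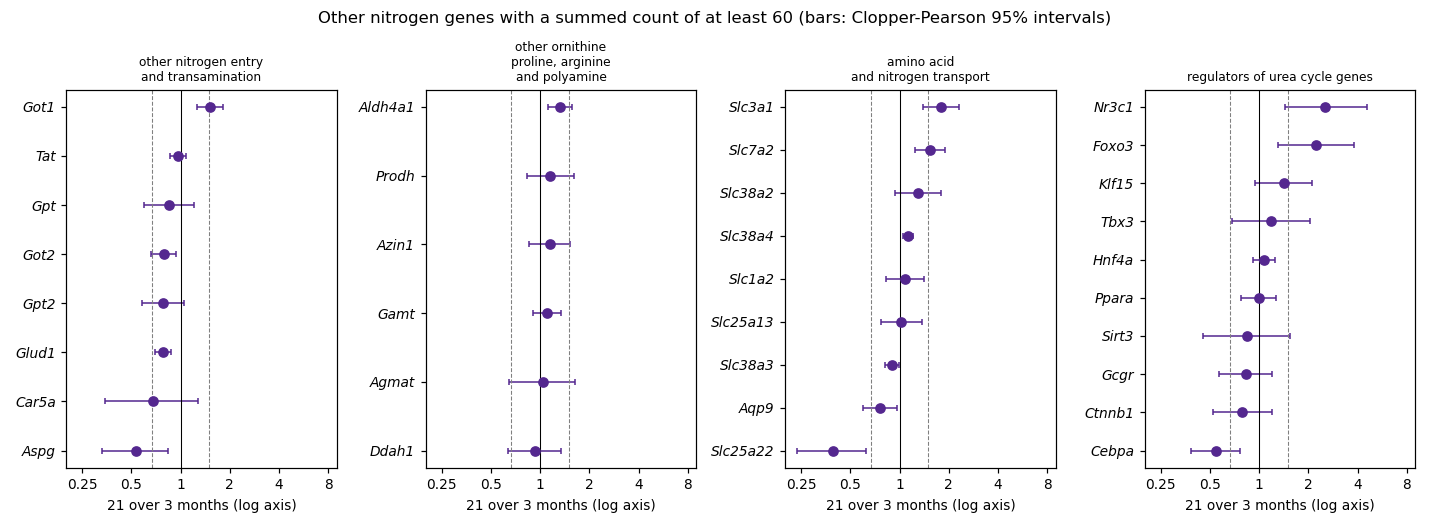
Ratio of 21 over 3 months (x axis, log scale) for the genes of the 4 further lists that had counts in every library and at least 60 counts in sum, with Clopper-Pearson 95% intervals as bars, a solid line at 1 and dashed lines at 1.5-fold. Got1, Slc3a1, Slc7a2, Nr3c1 and Foxo3 lie right of the dashed lines with intervals that leave out 1, and Aspg, Slc25a22 and Cebpa lie left of them.

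Markers of both sides of the lobule were measured beside these genes, and those named below other than Cyp2e1, Cyp2f2, Rhbg and the 10 genes were chosen after their values had been seen. The 13 markers of the central side, Glul and Oat included, summed to between 19813 cpm (3 months) and 22184 cpm (9 months). Of the 12 with counts in every library, 4 were past the fold, beyond counting error and lower at 21 than at 3 months, and 0 were higher, against 8.47% and 7.88% of all genes. The remaining marker, Lgr5, had 5, 4, 0 and 13 counts and was higher at 21 months, with a ratio of 3.29 (from 1.10 to 11.8). The 4 lower ones were Cyp2c29 with 1882, 1523, 649 and 718 counts (0.482, from 0.442 to 0.526), Gstm3 with 91, 52, 27 and 39 counts (0.542, from 0.362 to 0.797), and with very few counts Axin2 and the Rhbg gene named above. The most abundant of these markers, Cyp2e1, had 12112, 15003, 8264 and 11353 counts and a ratio of 1.19 (from 1.16 to 1.22), opposite in direction to these 4.

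The 11 markers of the portal side with a row, Ass1 and Gls2 included, summed to between 8633 cpm (15 months) and 11595 cpm (9 months). From 9 to 15 months, 4 of the 11 were past the fold, beyond counting error and lower (6.87% of all genes), and 0 were higher. Of the genes with at least 100 counts, 10.7% were past the fold and lower, and 39.6% were lower beyond counting error. Of all genes, 8.16% were higher beyond counting error, with or without being past the fold. Besides Ass1 the lower markers were Cyp2f2 with 4206, 5729, 2313 and 2985 counts (15 over 9 months 0.656), the serine dehydratase Sds with 351, 550, 179 and 356 counts (0.529) and the histidase Hal with 151, 184, 73 and 130 counts (0.645). Sdsl (1.63), Hsd17b6 (1.23) and Gls2 (1.11) had ratios above 1, with intervals that took in 1. On library totals Cyp2f2 (0.736) and Hal (0.723) were short of the fold, so that 2 of the 11, Sds and Ass1, were left. The share of all genes on library totals was not computed. Apoa4, an apolipoprotein gene, was higher at 15 months beyond counting error, with 327, 248, 224 and 166 counts and a ratio of 1.47 (from 1.22 to 1.77). On library totals the ratio of Apoa4 was 1.65 (from 1.37 to 1.98), which was past the fold as well. Whether a different make-up of the pooled tissue had a part in the values of Cps1, Ass1 and Asl was not tested.

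Reads that matched several places were left out by the authors' counting. Windows of 35 bases, the length of the reads, in the first 100 bases of the annotated coding transcripts were therefore searched in NCBIM37 with at most 1 mismatch. For 8 of the 10 genes no window was found outside the gene itself. Of the windows of Glul, 16.7% matched 1 of 2 other places, and 1 of these was the annotated pseudogene Glns-ps1. For Asl, 4.32% of the windows, taken from 3 transcripts, matched 80 other places in all. In the annotation, Nags, Gls2, Oat and Glul also overlap other genes, among them 3 for Glul. Reads in such stretches can count as ambiguous or belong to either gene, and whether the counting used the strand is not given in the sources used here.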

How the data were processed

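The deposited files held raw read counts per gene symbol for 4 libraries, 1 per age. According to the methods of the study, the authors enriched capped 5'-ends from pooled liver RNA, sequenced 35 base reads on a SOLiD 5500xl instrument and mapped them to mm9 with the CLC Genomic workbench. HTSeq is named in the submitters' processing notes, while its version and settings are not given in the sources used here. The deposited counts were used without change, except that the last 5 rows of each file, which name no gene, were left out. Reads without a unique place were the largest of these, with 72.2% to 76.7% of all reads, and 6.67% to 8.42% of the reads were counted on genes. Library totals of gene counts ranged from 525772 to 958586, and 3 counts, the limit that a count of 0 allows, equal 3.13 to 5.71 cpm. No molecular identifiers are named in the sources used here, and all intervals cover counting error only.

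Ratios between libraries were scaled by the geometric mean of 8704 genes and carry Clopper-Pearson 95% intervals (scipy 1.17.1). Intervals of cpm are exact Poisson intervals. Intervals for the difference of a within-library ratio between ages come from the reciprocals of the 4 counts on the log scale. The variance of clr was taken with a divisor of 3. The age trend was fitted with the quasi-likelihood test of edgeR 4.0.16 in R 4.3.3 (TMM, filterByExpr, age in months as a number, Benjamini-Hochberg adjustment), after the script had been tested on simulated data. DESeq2 1.42.0 served as an alternative. Gene positions come from GENCODE M1 on NCBIM37, where 33923 of 33924 symbols were found, and promoters from RefSeq on GRCm38.p6. Other scales, folds, minimum counts, a pseudocount of 1, a 99% interval and leaving out 1 age were tried as alternatives.

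The 10 genes and all lists were chosen with earlier results of these data known. Besides the 10 genes, the text names from each pathway list the genes that were past 1.5-fold and beyond counting error between 3 and 21 months, or otherwise the 2 with the most counts. From marker lists it names genes with the most counts or at 0, as well as some chosen after their values had been seen, and from the search for like patterns genes among the 3 nearest, of which some are not reported here.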

Additional observations from a re-analysis of the deposited data

How the results depend on the processing

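Without replicates, the counts of genes past a mark depended on the mark and the scale, and the cause was not tested where none is named. The numbers of the 10 genes past the fold follow. Shares of all genes at these other marks and scales were not computed. The numbers in this paragraph therefore show only how the calls among the 10 genes moved. For 9 against 3 months it was 2 with TMM factors (Cps1 and Oat), 6 at a fold of 5/4 and 0 at a fold of 2. For 15 against 9 months it was 0 at a fold of 2. For 21 against 15 months it was 0 on library totals, 1 (Ass1) with TMM factors, DESeq2 size factors or the geometric mean of genes with at least 10 counts, and 0 at a fold of 2. For 21 against 3 months it was 2 (Otc and Glul) at a fold of 5/4 and 0 at a fold of 2, and with a pseudocount of 1 the single gene was Glul in place of Otc. For 15 against 3 months it was 1 (Otc) on library totals, 2 (Ass1 and Asl) with a pseudocount of 1 and 3 at a fold of 5/4. For 21 against 9 months it was 0 on library totals, 4 at a fold of 5/4 and 0 at a fold of 2. Beyond counting error were 2 genes (Otc and Ass1) for 15 against 3 months on library totals, and 3 for 21 against 9 months on library totals or with a 99% interval. For 21 against 3 months, Asl made it 6 in place of 5 on all 4 other scales, and for 9 against 3 months it was 5, without Glul, with TMM factors or a 99% interval.

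The share of genes past the fold was lower among genes with more counts. Among genes with at least 10 and at least 100 counts in every library it was 28.1% and 13.9% for 9 against 3 months, 29.5% and 14.7% for 15 against 9, 28.6% and 10.3% for 21 against 15, 29.0% and 10.9% for 21 against 3, 32.3% and 18.5% for 15 against 3, and 27.4% and 8.45% for 21 against 9 months. Without the 10 most abundant genes of each library, the summed share of the 10 genes was 1.04%, 1.45%, 1.04% and 1.246% at 3, 9, 15 and 21 months. Per kilobase, 4 of the 10 genes kept their rank. DESeq2's Wald test called 0 genes for the age trend (123 at an unadjusted p under 0.05), and leaving out 1 age gave between 7 and 23 called genes, of which 16 without 15 months and 23 without 21 months, each with 0 of the 10 genes. The slopes of 6 of the 10 genes turned their sign when some age was left out, and none was called with or without it. In log2 per year, and without 3, 9, 15 and 21 months in this order, the slopes of these genes were -0.36, 0.12, 0.06 and -0.07 for Cps1, -0.20, 0.09, 0.089 and -0.36 for Ass1, -0.16, 0.11, 0.11 and -0.27 for Asl, -0.36, -0.13, -0.21 and 0.11 for Nags, -0.62, 0.18, 0.03 and 0.20 for Oat, and -0.14, 0.16, 0.10 and 0.27 for Slc25a15.

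No paired analysis was possible because each age had 1 library and the labels give no replicate numbers. At this depth Nags, with at most 29 counts in a library, could not show a 1.5-fold difference.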
